A study of Arabidopsis thaliana with 15 samples.

Results

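The leaf transcriptomes of NHX5 single knockout plants (nhx5-2) and of NHX6 single knockout plants (nhx6-2) were set directly against each other. The comparison used 3 arrays of each genotype out of the 15 arrays of the series. The members were the 6 arrays labelled with these genotypes, and all 22746 probe sets that are not array controls were compared. The nhx5-2 plants carry a T-DNA insertion of the GABI collection in NHX5, and the nhx6-2 plants a SALK insertion in NHX6, so that each genotype is 1 insertion line. All plants were Arabidopsis thaliana of the Columbia accession, and rosette leaves were taken at 4 weeks from plants grown on soil in 8 h of light and 16 h of darkness. The other 9 arrays came from the double knockouts nhx5-2/nhx6-2 and nhx5-1/nhx6-1 and from wild type, and are used to follow named genes and probe sets, in a separate fit of the double knockouts, and in alternative fits. The second of these double knockouts has a WiscDsLox insertion in NHX5 and a different SALK insertion in NHX6.

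NHX5 and NHX6 belong to the NHX family of antiporters, which exchange sodium or potassium ions for protons across membranes. NHX1 and NHX2 act at the vacuole, whereas NHX5 and NHX6 are found in the Golgi, the trans-Golgi network and endosomes, where such exchange counters the acidification driven by the vacuolar-type proton ATPase. Both are known to be needed together for normal growth and for the delivery of proteins to the vacuole, and the comparison asked whether the loss of either gene alone leaves the leaf in the same state. The annotation table pairs neither gene with a probe set, so no probe set is read here as their transcript and the genotypes rest on the labels. Whether a probe set without a listed gene measures NHX5 or NHX6 was not tested. Those numbered beside probe sets of neighbouring genes are pointed out below.

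Values are the deposited scores, which lie on a log-like scale with a mean near 0 on each array, and differences are nhx5-2 minus nhx6-2 in deposited units. As a yardstick, a doubling of the nominal spike-in concentration corresponded to 0.678 units (mean of 6 arrays, SD 0.0297). Standard errors, 95% intervals and adjusted p values come from limma fitted to the 6 arrays, with Benjamini-Hochberg adjustment over all 22746 probe sets and a threshold of 0.05. The number of arrays limits the precision, and as the labels call the replicates biological without saying what was pooled, p values measure the spread between these samples.

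Few cell type markers had a listed probe set. RCA, which codes for the activase of the carbon-fixing enzyme Rubisco, stood between 4.97 and 5.71 on the 6 arrays, at the 100th percentile of mean levels. The root hair expansin gene EXPA7, the meristem gene CLV3 and the stomatal lineage gene SPCH averaged −0.57, −0.76 and −0.70 in nhx5-2 and −0.57, −0.67 and −0.69 in nhx6-2. These levels are near those of the control probe sets without a target, whose median lay between −0.80 and −0.61 on the 6 arrays. FAMA, listed as FMA, of the guard cell lineage was above the highest such control on every array, at −0.27 in nhx5-2 and −0.19 in nhx6-2, and the trichome gene TRY averaged 0.54 in nhx5-2 and 0.50 in nhx6-2 (differences −0.08 ± 0.05 and 0.04 ± 0.10, SE).

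A pair of arrays stood apart from the rest. On nhx5-2 replicate 1, 272 probe sets lay at least 0.5 units above all 5 other arrays and 2 that far below them, and on nhx6-2 replicate 3 the numbers were 190 and 2. None of the other 4 arrays had more than 19 such probe sets in all. The SD of the scores was 0.80 on nhx5-2 replicate 1 and 0.89 on each of the other 5 arrays, and averaged 0.858 in nhx5-2 and 0.89 in nhx6-2 (exact permutation test, two-sided p = 0.3, where 0.1 is the smallest p that 3 against 3 arrays allow). The 3′ minus 5′ signal of actin and GAPDH control probe sets, which is higher in degraded RNA, was 1.09 ± 0.05 units in nhx5-2 and 1.15 ± 0.08 in nhx6-2 (SD, n = 3 each, exact permutation test, two-sided p = 0.4). Without both odd arrays 1 probe set passed, AT2G32500.

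Few probe sets separated the leaves of the single knockouts. Of 22746 probe sets, 2 changed (0.00879% of those tested), both lower in nhx5-2 (0.00879%) and none higher (0%). At an unadjusted p under 0.05 there were 571 probe sets (2.51%), 258 higher in nhx5-2 (1.13%) and 313 lower (1.38%). That share is below the 0.05 that this threshold lets through on average where no gene differs. The median absolute difference was 0.0436 units, and 99% of probe sets differed by less than 0.30 units. Differences of at least 0.5 units were seen for 52 probe sets and of at least 1 unit for 8, of which 4 had nhx5-2 and nhx6-2 arrays that did not overlap. These 4 were AT2G32500, lower in nhx5-2, and 3 probe sets without a listed gene whose nhx5-2 arrays were all above: 265837_at (1.48 ± 0.46), 262832_s_at (1.16 ± 0.27) and 251705_at (1.02 ± 0.34, SE), named after their values were seen. None of the 3 passed (limma adjusted p = 0.981 for each), and in each the highest array was nhx5-2 replicate 3. They also varied widely between arrays of each double knockout. In nhx5-2/nhx6-2 they ranged from 0.79 to 2.645, −0.13 to 2.12 and 0.78 to 1.95, in the same order. In nhx5-1/nhx6-1 the ranges were −0.43 to 1.97, −0.40 to 2.18 and −0.02 to 1.315.

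A p that misses the threshold does not show that genes were equal, so the widths of the intervals were examined. The 95% interval of the difference reached a median of 0.142 units to either side of the estimate, and 0.258 units at the 90th percentile. It lay within 0.5 units of 0 for 21760 probe sets (95.7%) and within 1 unit of 0 for 22650 (99.6%). For the remaining 96 probe sets a difference of 1 unit or more lay inside the interval. The 3 nhx5-2 values were all above or all below the 3 nhx6-2 values for 1820 probe sets (8%), with nhx5-2 above in 860 (3.78%) and below in 960 (4.22%). With interchangeable arrays, 3 against 3 values fail to overlap for a share of 0.1 on average.

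**Figure D1:**
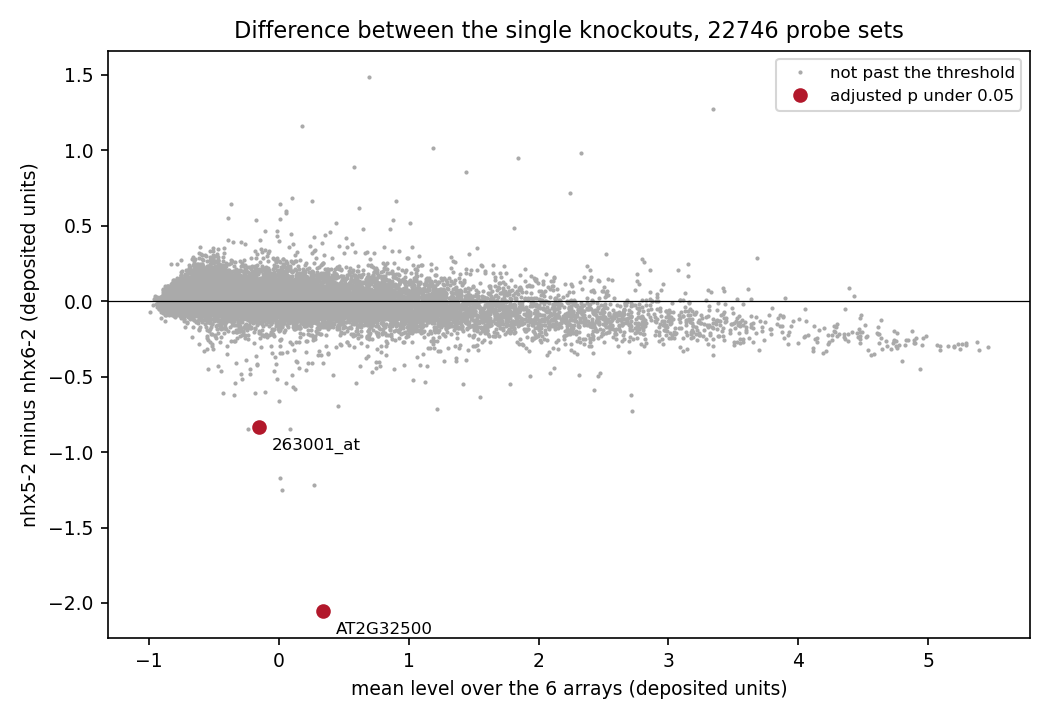
Each point is a probe set, with its mean level over the 6 arrays on the x axis and the difference nhx5-2 minus nhx6-2 on the y axis, both in deposited units. The 2 probe sets past the threshold, AT2G32500 and 263001_at, are marked and lie below 0, and the cloud bends below 0 among the brightest probe sets.

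The gene that separated the genotypes was AT2G32500, which codes for a protein of the stress responsive A/B barrel domain family. Its score was −0.63, −0.73 and −0.71 on the nhx5-2 arrays, against 1.45, 1.35 and 1.295 on the nhx6-2 arrays. All nhx5-2 arrays were low, and the groups lay far apart. The gene fell by 2.05 units in nhx5-2 (SE 0.06, n = 3 arrays each, limma adjusted p = 7.602e-05), with a 95% interval from −2.19 to −1.92. On all 3 nhx5-2 arrays it lay below the highest control probe set without a target. The fall is therefore a lower bound, at least 8.11-fold on the spike-in scale when no nhx5-2 value is taken below its array's no-target median. No other probe set with a single listed gene passed.

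The other probe set that passed, 263001_at, has no gene listed in the annotation. It had scores of −0.52, −0.64 and −0.55 on the nhx5-2 arrays, against 0.29, 0.28 and 0.23 on the nhx6-2 arrays. These groups too were far apart, with all nhx5-2 arrays under the highest no-target control. It fell by 0.83 units (SE 0.05, limma adjusted p = 0.00759), at least 2.35-fold on the spike-in scale. The call depended on every array other than nhx5-2 replicate 1, without which it passed: the adjusted p was 0.0658 without nhx5-2 replicate 2, 0.0892 without nhx5-2 replicate 3, and 0.131, 0.11 and 0.0595 without nhx6-2 replicates 1, 2 and 3. In each of these 5 fits AT2G32500 was the probe set that passed.

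Next in order of p came 3 more probe sets without a listed gene, singled out after their values were seen. Probe set 263009_at stood at −0.50, −0.67 and −0.81 on the nhx5-2 arrays and at 0.19, 0.24 and 0.11 on the nhx6-2 arrays, a difference of −0.84 ± 0.08 units (SE) with a limma adjusted p of 0.154. Its groups did not overlap, and it passed when all 15 arrays shared 1 estimate of the spread (adjusted p = 9.05e-05). Probe set 254520_at was at 0.27, 0.29 and 0.38 in nhx5-2 and at −0.125, −0.14 and −0.13 in nhx6-2 (difference 0.44 ± 0.05, adjusted p = 0.154). Probe set 261398_at was at −0.14, −0.04 and −0.03 in nhx5-2 and at −0.48, −0.45 and −0.43 in nhx6-2 (difference 0.38 ± 0.05, adjusted p = 0.427). For both, all nhx5-2 arrays were the higher ones. Both passed only when limma estimated array weights (adjusted p = 0.00688 for 254520_at and 0.004 for 261398_at). In that fit nhx5-2 replicate 2 had a weight of 7.37, against 0.161 for replicate 1 and 1 for replicate 3. With all 15 arrays the limma adjusted p was 0.81 for 254520_at and 0.9999 for 261398_at.

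These 5 probe sets were then followed on the 9 arrays that did not enter the fit. The ranges by allele given below also take in the 6 arrays by which the probe sets were chosen. AT2G32500 stood at −0.77, −0.78 and −0.68 in nhx5-2/nhx6-2 and at 1.26, 1.19 and 0.82 in nhx5-1/nhx6-1, against 1.31, 1.39 and 1.35 in wild type. It was thus low on all 6 arrays that carry the nhx5-2 allele (−0.78 to −0.63) and high on the 9 that do not (0.82 to 1.45), including those with the other insertion in NHX5. In a separate limma fit of the double knockouts, which shares no array with the comparison of the single ones, the difference nhx5-2/nhx6-2 minus nhx5-1/nhx6-1 was −1.83 units (adjusted p = 0.01174). The 3′ minus 5′ signal ran from 1.31 to 1.81 in nhx5-2/nhx6-2 and from 1.85 to 2.02 in nhx5-1/nhx6-1, and its part in the double knockout results was not tested.

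Probe set 263001_at had the same order of levels. It averaged −0.61 ± 0.02 in nhx5-2/nhx6-2 and 0.21 ± 0.06 in nhx5-1/nhx6-1, against 0.35 ± 0.05 in wild type (SD, n = 3 each). The 6 arrays with the nhx5-2 allele lay between −0.64 and −0.52, and the 9 without it between 0.15 and 0.40. In the fit of the double knockouts it differed by −0.82 units (limma adjusted p = 0.01174). That fit called 5 probe sets (0.022%), 3 higher (0.0132%) and 2 lower (0.00879%) in nhx5-2/nhx6-2, and 2209 had an unadjusted p under 0.05 (9.71%). The probe sets called between the single knockouts were among the 5, which is 100% of the calls between the single and 40% of those between the double knockouts, with the same sign.

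Probe set 263009_at behaved differently on the same arrays. It stood at −0.67, −0.73 and −0.69 in nhx5-2/nhx6-2 and at −0.69, −0.76 and −0.58 in nhx5-1/nhx6-1, against 0.28, 0.30 and 0.30 in wild type. The 9 arrays with either insertion in NHX5 lay between −0.81 and −0.50, and the 6 arrays of nhx6-2 and wild type between 0.11 and 0.30. Between the double knockouts it differed by −0.02 units (limma adjusted p = 0.947).

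Of the other 2 probe sets, 261398_at was low wherever the nhx6-2 allele was present. It averaged −0.40 ± 0.035 in nhx5-2/nhx6-2 and 0.04 ± 0.22 in nhx5-1/nhx6-1, against −0.06 ± 0.02 in wild type (SD, n = 3 each). The 6 arrays with that allele lay between −0.48 and −0.37, and the 9 others between −0.14 and 0.30. Probe set 254520_at averaged 0.33 ± 0.06 in nhx5-2/nhx6-2 and 0.05 ± 0.20 in nhx5-1/nhx6-1, against −0.03 ± 0.12 in wild type (SD, n = 3 each). It ranged from 0.27 to 0.38 over the 6 arrays with the nhx5-2 allele and from −0.17 to 0.24 over the 9 others. The highest of the 9 was an nhx5-1/nhx6-1 array. Neither passed between the double knockouts, with differences of −0.44 units (limma adjusted p = 0.282) for 261398_at and 0.29 units (adjusted p = 0.425) for 254520_at.

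**Figure D2:**
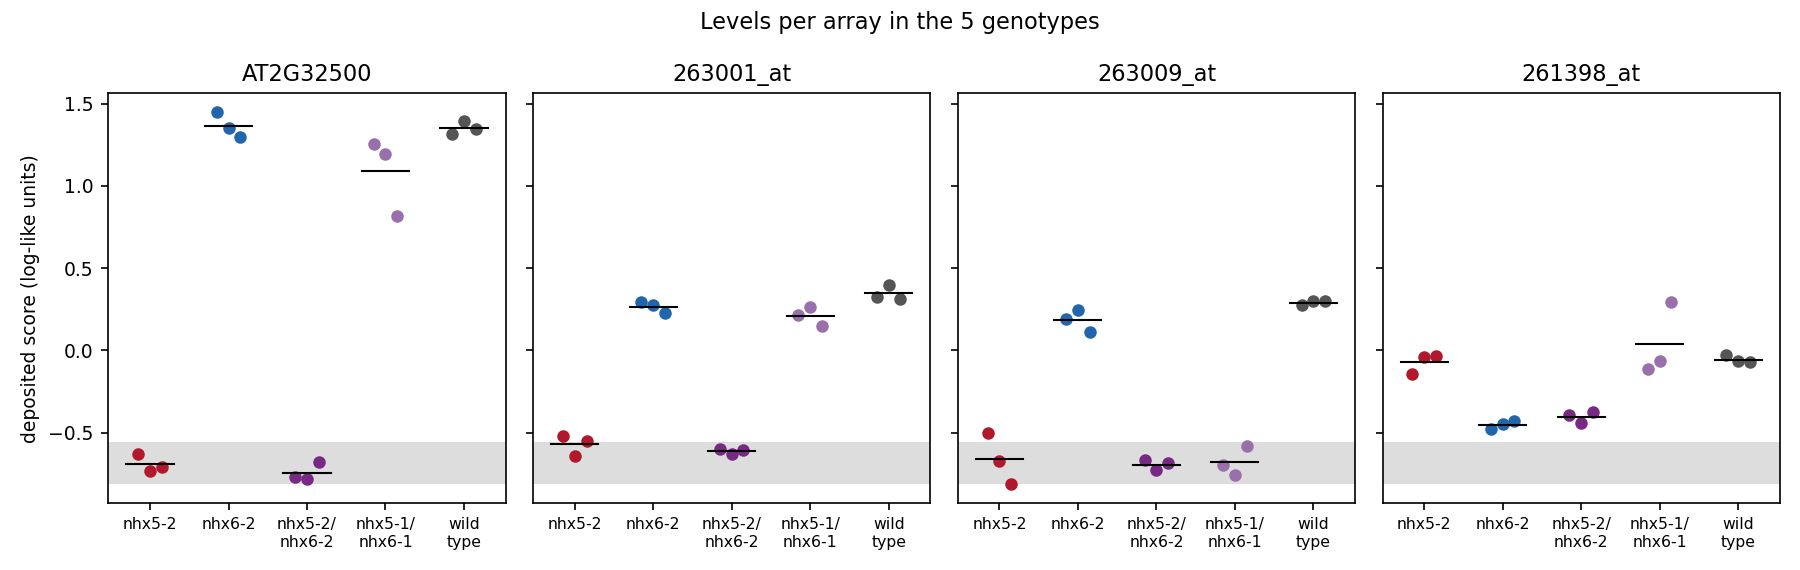
The deposited score of 4 probe sets is plotted for each array (points) of the 5 genotypes, with the mean of each genotype as a line and a grey band for the span of the control median without a target on 15 arrays. AT2G32500 and 263001_at are low in nhx5-2 and nhx5-2/nhx6-2, 263009_at is also low in nhx5-1/nhx6-1, and 261398_at is low in nhx6-2 and nhx5-2/nhx6-2.

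Because each single knockout is a T-DNA line, the genes on either side of the relevant loci were examined, the 15 nearest protein-coding genes each way in the reference gene table. Of the 30 neighbours of each locus, 17 of NHX5, 10 of NHX6 and 14 of AT2G32500 had a listed probe set and were measured. The other neighbours could not be followed. Whether 263001_at, which passed, or another probe set without a listed gene measures such a neighbour was not tested. None of the measured neighbours passed the test. Their median differences were 0.04, 0.02 and 0.05 units, against 0.0007 over all probe sets, and the ranges were −0.30 to 0.20, −0.05 to 0.14 and −0.03 to 0.18. These medians were 0.007 without nhx6-2 replicate 3 for NHX5 and 8.93e-05 without nhx5-2 replicate 2 for NHX6, and turned to −0.007 without nhx5-2 replicate 3 for AT2G32500. Under other alternatives the first 2 turned sign too. The NHX5 median was −0.0007 with array weights. The NHX6 median fell below 0 with arrays shifted to 1 median and with the 3′ minus 5′ covariate, to −0.00441 at the lowest. At an unadjusted p under 0.05 there were 2 neighbours of NHX5 (11.8%, against 2.51% of all probe sets) and none of the other 2 loci. Groups did not overlap for 3 of 17, 1 of 10 and 1 of 14 neighbours, against 8% of all probe sets.

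Of the genes directly next to NHX5, only AT1G54380 was measured, and it differed by −0.01 ± 0.06 units. Next to NHX6 only AT1G79620 was measured, with a difference of −0.05 ± 0.04 (SE). Among the measured neighbours of NHX5 the strongest difference was that of AT1G54410, the gene of a small dehydrin. It stood at 2.81, 3.11 and 2.89 in nhx5-2 against 3.19, 3.11 and 3.43 in nhx6-2 (−0.30 ± 0.11, limma unadjusted p = 0.0236, adjusted p = 0.981). Its nhx5-2 arrays were all lower, but the nearest arrays of the genotypes were almost level.

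The 10 genes with the largest non-overlapping differences in each direction were examined next, none of which passed apart from AT2G32500. Among probe sets with 1 listed gene, the largest such difference above 0 was that of AT3G28540, a P-loop nucleoside triphosphatase gene, at 0.35, 0.27 and 0.42 in nhx5-2 against −0.12, −0.40 and −0.19 in nhx6-2 (difference 0.58 ± 0.08, limma adjusted p = 0.753). All nhx5-2 arrays lay clearly above. This gene was also high on some arrays of both double knockouts, from 0.20 to 0.96 in nhx5-2/nhx6-2 and from 0.32 to 0.93 in nhx5-1/nhx6-1, against −0.34 to 0.10 in wild type.

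In several of the genes that stood higher in nhx5-2, replicate 3 of nhx5-2 was far above the other arrays. AT1G13470 had scores of −0.34, −0.25 and 0.25 in nhx5-2 against −0.70, −0.71 and −0.59 in nhx6-2. The receptor-like kinase gene AT1G35710 stood at 0.01, 0.10 and 0.72 in nhx5-2 against −0.30, −0.50 and −0.01 in nhx6-2, and the lipid transfer protein family gene AT5G55450 at −0.14, −0.16 and 0.57 against −0.48, −0.55 and −0.31. The TIR-domain gene AT3G04210, of a class with roles in immunity, was at 0.41, 0.47 and 0.98 in nhx5-2 against 0.12, 0.13 and 0.23 in nhx6-2. In all 4 that array was the highest of the 6. Their differences were 0.55, 0.55, 0.54 and 0.46 units (limma adjusted p = 0.981 for each), and 0.37, 0.33, 0.29 and 0.28 without that array. All 4 genes also varied between arrays of each double knockout. In nhx5-2/nhx6-2 they ranged from −0.56 to 0.09, 0.14 to 1.025, 0.02 to 1.32 and −0.36 to 0.22, in the same order. In nhx5-1/nhx6-1 the ranges were −0.64 to 0.34, −0.03 to 1.19, −0.48 to 1.09 and −0.53 to 0.0004.

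The rest of the genes that were higher in nhx5-2 differed by 0.34 to 0.42 units. SGT1A, which codes for a co-chaperone of immune receptors and of ubiquitin ligases, had scores of 1.02, 1.25 and 1.34 in nhx5-2 against 1.00, 0.76 and 0.77 in nhx6-2 (0.36 ± 0.10, limma adjusted p = 0.981). Its lowest nhx5-2 array was almost level with the highest nhx6-2 array. AT4G27300, a receptor-like kinase gene, AT5G42250, an alcohol dehydrogenase family gene, AT1G80130, a gene of the tetratricopeptide repeat family, and AT1G77960 made up the rest. AT1G77960 differed by 0.34 units, and by 0.18 without nhx5-2 replicate 1, and its second probe set by 0.13.

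Among genes lower in nhx5-2, AT5G22580 belongs to the same A/B barrel domain family as AT2G32500. It stood at 1.21, 1.42 and 1.07 in nhx5-2 against 1.86, 2.14 and 1.60 in nhx6-2 (−0.63 ± 0.15, limma adjusted p = 0.981). The groups were separate. On the other arrays it ranged from 1.41 to 1.54 in nhx5-2/nhx6-2 and from 0.87 to 1.46 in nhx5-1/nhx6-1, against 1.585 to 1.91 in wild type. The wax ester synthase gene WSD1 was at −0.26, −0.32 and −0.24 in nhx5-2 against −0.04, 0.22 and 0.40 in nhx6-2 (−0.46 ± 0.11). AT1G20070 was at 0.46, 0.58 and 0.66 in nhx5-2 against 1.099, 0.90 and 0.91 in nhx6-2 (−0.40 ± 0.08), the nhx6-2 arrays being the highest for both genes.

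For another 4 genes that were lower in nhx5-2, a single nhx6-2 array lay well above the rest. JRG21, a jasmonate-regulated gene, stood at −0.76, −0.74 and −0.73 in nhx5-2 against −0.58, −0.67 and 0.85 in nhx6-2. AT3G05640, a type 2C protein phosphatase gene, was at −0.26, −0.10 and −0.07 in nhx5-2 against 0.20, 0.14 and 0.69 in nhx6-2. The vacuolar invertase gene AT1G62660 was at 0.02, 0.03 and 0.00 in nhx5-2 against 0.23, 0.07 and 0.98 in nhx6-2, and AT2G32150, a gene of the haloacid dehalogenase-like hydrolase family, was at 0.97, 0.97 and 0.68 against 1.15, 1.03 and 1.72. In each of them nhx6-2 replicate 3 was the highest array, and without it the differences were −0.12, −0.31, −0.13 and −0.21 units, against −0.61, −0.49, −0.41 and −0.42 with it. AT3G05640 was also high in both double knockouts, at 0.89 to 0.99 in nhx5-2/nhx6-2 and 0.86 to 1.42 in nhx5-1/nhx6-1, against −0.24 to −0.21 in wild type.

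The lipid transfer family gene AT1G62510 and AT4G16870, a pseudogene in the gene table, completed the set, with differences of −0.48 and −0.42 units. Without nhx6-2 replicate 1 that of AT1G62510 was −0.32. AT4G16870 was at −0.38 on all 3 nhx5-2 arrays against 0.19, 0.19 and −0.27 in nhx6-2. Between the double knockouts it stood at −0.30, −0.47 and −0.36 in nhx5-2/nhx6-2 against 0.37, 0.63 and 0.33 in nhx5-1/nhx6-1, a difference of −0.82 units (limma adjusted p = 0.0958). Wild type, at −0.22, −0.20 and −0.26, lay nearer to the arrays with the nhx5-2 allele.

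**Figure D3:**
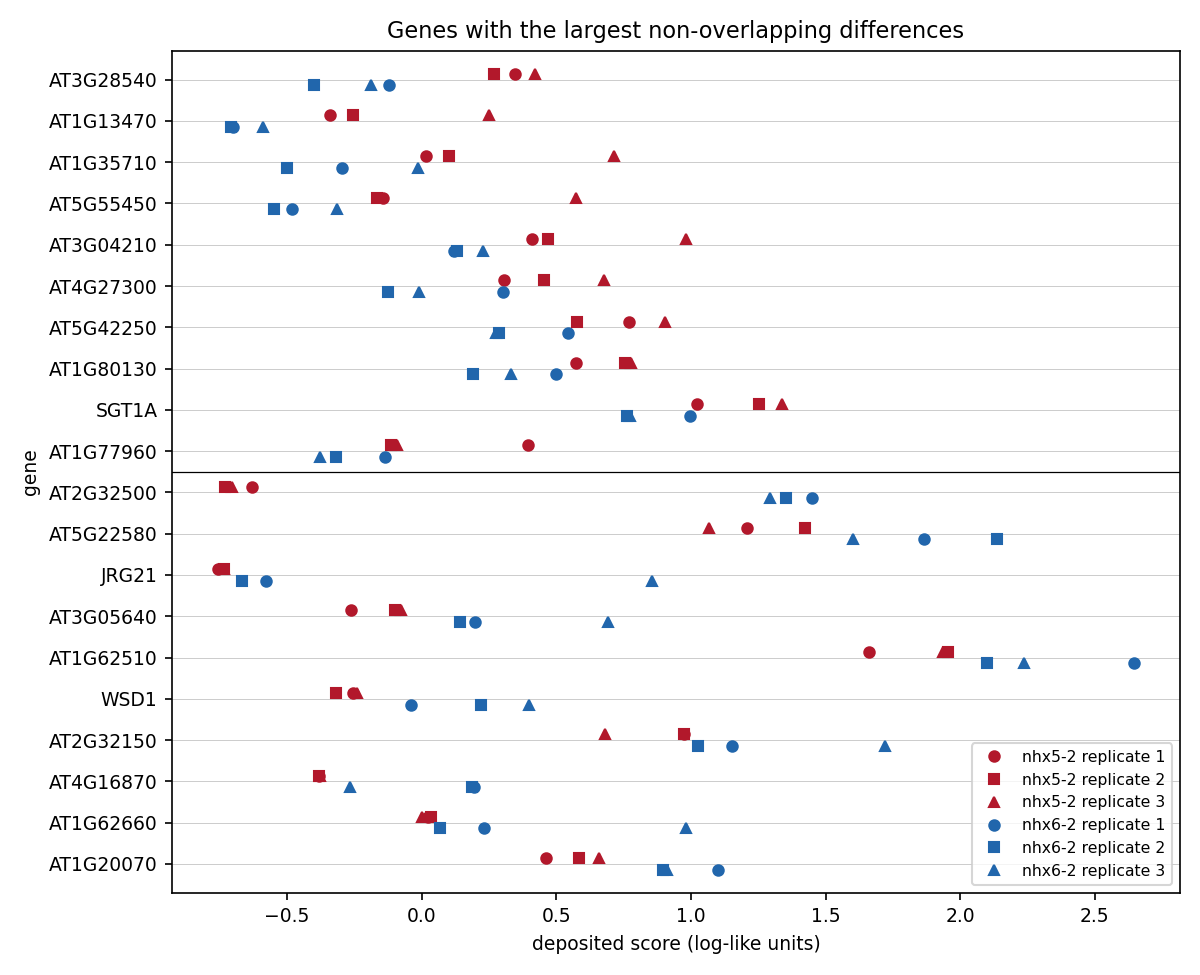
Deposited scores on the 6 arrays are shown for the 10 genes with the largest non-overlapping differences above 0 (upper block) and below 0 (lower block), with nhx5-2 in red, nhx6-2 in blue and a symbol for each replicate. Only AT2G32500 has a gap much wider than the spread of its replicates, and the triangles of nhx6-2 replicate 3 stand apart for JRG21, AT1G62660, AT2G32150 and AT3G05640.

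Genes of 29 lists were examined, of which 23 had a measured member, with 75 different genes measured of 415. No member passed, 5 had an unadjusted p under 0.05 (6.67%, against 2.51% of all probe sets), and 6 had groups that did not overlap (8%, the same share as over all probe sets). The differences of all 75 lay between −0.52 and 0.21 units with a median of −0.02, against 0.0007 over all probe sets. The text below takes first the machinery around endosomal ion exchange, then stress genes, then leaf functions.

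Antiporters related to NHX5 and NHX6 were measured only by CHX16, CHX19 and CHX20 of the CHX family of cation/proton exchangers, none of which passed. CHX20, which acts in guard cells, averaged 0.06 in nhx5-2 and 0.01 in nhx6-2 (difference 0.05 ± 0.12, interval −0.24 to 0.34). CHX16 and CHX19 averaged −0.61 and −0.49 in nhx5-2 and −0.60 and −0.57 in nhx6-2, differing by −0.0045 and 0.08 units. Both were near the control probe sets without a target, whose highest value lay between −0.56 and −0.385 on these arrays. CHX16 was below that highest control on every array, so its difference says little about its transcript. The list median of 0.05 turned to −0.01 without nhx5-2 replicate 1.

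Subunits of the vacuolar-type proton ATPase, which acidifies the compartments where NHX5 and NHX6 work, did not differ detectably. Of 9 measured proton pump genes none passed, 6 had differences below 0 and the median was −0.09 units. AT3G42050, the gene of subunit H, was at 1.88, 2.07 and 2.13 in nhx5-2 against 2.16, 2.24 and 2.18 in nhx6-2 (−0.17 ± 0.07, interval −0.33 to 0.005). The nhx5-2 arrays were the lower ones, replicate 1 most of all, and without that array the list median was −0.03. VHA-A2, a vacuolar isoform of subunit a, differed by −0.11 ± 0.06 units. VHA-A1, the isoform of the trans-Golgi network, and VHA-A3, the other vacuolar one, were added outside the naming rule for these roles after their values were seen, and differed by 0.02 ± 0.06 and 0.002 ± 0.07.

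Genes of membrane traffic were equally close. Of 4 measured genes of endosomal and vacuolar trafficking none passed and the median difference was −0.04 units, which turned to 0.004 without nhx5-2 replicate 1. ARA6, a plant-specific Rab GTPase gene of endosomes, was at 0.79, 0.96 and 0.92 in nhx5-2 against 1.00, 0.95 and 0.92 in nhx6-2 (−0.07 ± 0.06). The nhx5-2 replicate 1 array alone was apart. The genes of MON1 (AT2G28390) and CCZ1b (AT1G80910), partners in endosome maturation, differed by −0.09 ± 0.08 and 0.01 ± 0.05 units.

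Among 6 vacuolar proteases none passed, 5 had differences above 0, and the median was 0.06 units, which turned to −0.0009 without nhx5-2 replicate 1 and to −0.02 with array weights. APA1, an aspartic protease gene, was at 2.79, 3.00 and 2.82 in nhx5-2 against 3.04, 2.98 and 3.18 in nhx6-2 (−0.19 ± 0.08, limma unadjusted p = 0.043, adjusted p = 0.981). The groups overlapped. GAMMA-VPE, whose product matures vacuolar proteins, was at 1.63, 1.62 and 1.64 in nhx5-2 against 1.62, 1.11 and 1.53 in nhx6-2 (0.21 ± 0.13), where nhx6-2 replicate 2 alone was low.

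Of the autophagy list 12 of 24 genes were measured, of which none passed and 9 had differences below 0. The median was −0.08 units, and −0.02 without nhx6-2 replicate 3. ATG8F, a gene of the ATG8 proteins that coat forming autophagosomes, had scores of 1.57, 1.81 and 1.81 in nhx5-2 against 2.01, 2.02 and 1.92 in nhx6-2 (−0.25 ± 0.08, limma unadjusted p = 0.0149, adjusted p = 0.981). Its arrays did not overlap. ATG8E was at −0.05, 0.06 and 0.09 in nhx5-2 against 0.11, 0.22 and 0.10 in nhx6-2 (−0.11 ± 0.06), barely separate, and ATG3, for the enzyme that conjugates these proteins, differed by −0.10 ± 0.06. Of 4 genes of folding in the endoplasmic reticulum, none passed and their differences lay between −0.07 and 0.04 units, with a median that turned from −0.02 to 0.03 without nhx5-2 replicate 1.

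The abscisic acid, drought and cold list had the widest gap, with a median difference of −0.37 units over 6 measured genes, none of which passed. All of the wide differences shared 1 high array. ALDH7B4, an aldehyde dehydrogenase gene, was at 0.71, 0.81 and 0.81 in nhx5-2 against 0.88, 0.76 and 2.24 in nhx6-2 (−0.52 ± 0.36). COR47, a dehydrin gene, was at 1.096, 1.17 and 0.96 in nhx5-2 against 1.11, 1.16 and 2.14 in nhx6-2 (−0.39 ± 0.26), and LTI30, another dehydrin gene, at −0.47, −0.39 and −0.49 against −0.54, −0.50 and 0.87 (−0.39 ± 0.36). In each of them nhx6-2 replicate 3 was high and the other 5 arrays were close together. LTI30 itself turned sign without that array. Without that array the list median was 0.10 units, so its sign turned.

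Other stress and hormone lists were thinly measured. None of the listed genes of salicylic acid and defence (2 measured), jasmonate (2), auxin and brassinosteroid (2), iron (2), glucosinolates (1), heat shock and cytosolic chaperones (1) or oxidative stress (2) passed. The defence regulators SAG101 and WRKY53 differed by 0.09 ± 0.06 and 0.05 ± 0.07 units. IAA29, an auxin response gene, was at 0.11, 0.27 and 0.25 in nhx5-2 against 0.24, 0.94 and 0.33 in nhx6-2 (−0.30 ± 0.18), with nhx6-2 replicate 2 alone high. AT3G09440, a cytosolic heat shock cognate gene, differed by 0.18 ± 0.11 units.

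All 5 measured photosynthesis genes had differences below 0, with a median of −0.28 units, and none passed. LHCB4.1, an antenna gene of photosystem II, was at 4.47, 4.95 and 4.70 in nhx5-2 against 4.91, 5.10 and 5.48 in nhx6-2 (−0.45 ± 0.17, limma unadjusted p = 0.0322). Its groups overlapped, and nhx5-2 replicate 1 was lowest and nhx6-2 replicate 3 highest. LHCB4.3, a dimmer relative, was at 1.17, 1.16 and 1.40 in nhx5-2 against 1.59, 1.78 and 1.53 in nhx6-2 (−0.39 ± 0.09, unadjusted p = 0.00378, adjusted p = 0.981), with no overlap. RCA differed by −0.28 ± 0.14 units.

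This direction moved with brightness over the whole array. Of the 227 probe sets with the highest mean level, the top 1%, 214 had differences below 0, with a median of −0.20 units. After quantile normalization that median was 0.002 and 107 were below 0, and the median of the photosynthesis genes turned to 0.01. LHCB4.3 kept a difference of −0.33 units there. The SD of the scores, lowest on nhx5-2 replicate 1, moves with this comparison too, and without both odd arrays the median of the 227 was −0.06 and that of the photosynthesis genes −0.06. The part of array scale in the differences of the photosynthesis genes was not tested beyond these values.

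Of 69 measured chloroplast-encoded genes none passed, 56 had differences below 0, and the median was −0.08 units, which turned to 0.01 without nhx6-2 replicate 1. The ribosomal protein gene rpl33 was at 2.00, 2.18 and 2.14 in nhx5-2 against 2.56, 2.55 and 2.23 in nhx6-2 (−0.34 ± 0.10, limma unadjusted p = 0.0125), the one gene of the list without overlap (1.45%, against 8% of all probe sets). The ATP synthase gene atpA, at 2.14, 2.32 and 2.15 in nhx5-2 against 2.62, 2.30 and 2.54 in nhx6-2, differed by −0.28 ± 0.09 with overlapping groups. The medians of the list ran from 1.23 to 1.48 over the nhx5-2 arrays and from 1.14 to 1.73 over the nhx6-2 arrays.

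Clock, flavonoid and cell wall genes gave no call either. CCL was at 1.197, 1.55 and 1.61 in nhx5-2 against 1.65, 1.80 and 1.67 in nhx6-2 (−0.26 ± 0.11), and the clock gene GI differed by 0.02 ± 0.05. HYH, a light-signalling transcription factor gene, was at 0.19, 0.38 and 0.28 in nhx5-2 against 0.17, 0.23 and 0.10 in nhx6-2 (0.12 ± 0.06), with overlap. The expansin gene EXPA4, whose product loosens cell walls, was at 0.48, 0.60 and 0.49 in nhx5-2 against 0.70, 0.74 and 0.81 in nhx6-2 (−0.23 ± 0.05, limma unadjusted p = 0.00348, adjusted p = 0.981), with no overlap.

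**Figure D4:**
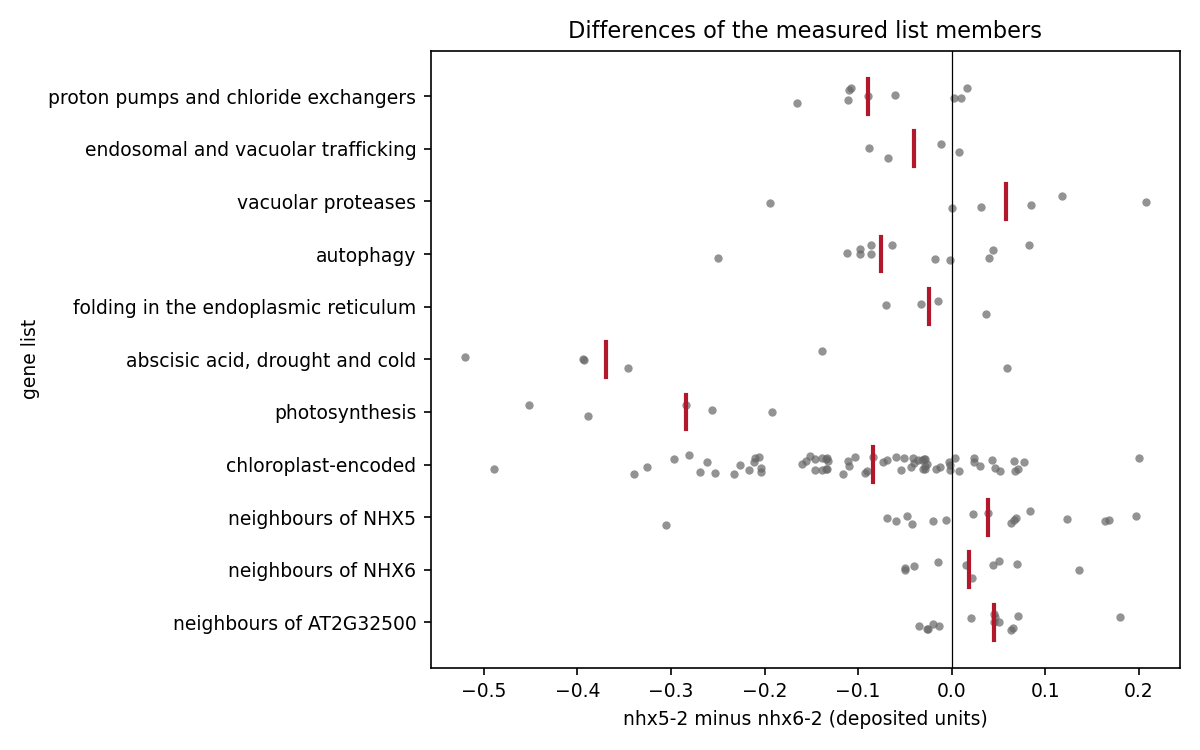
Differences nhx5-2 minus nhx6-2 are plotted for each measured member (points) of 11 gene lists, with the list median as a red line. The abscisic acid, drought and cold list and the photosynthesis list lie farthest below 0, at −0.37 and −0.28 units, and no member of any list passed the test.

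Distances between arrays of different genotypes covered about the range of those within a genotype. The mean absolute difference over all probe sets was 0.060 to 0.149 units between 2 nhx5-2 arrays and 0.072 to 0.115 between 2 nhx6-2 arrays, and 0.057 to 0.154 between an nhx5-2 and an nhx6-2 array. The closest of all 15 pairs joined nhx5-2 replicate 2 and nhx6-2 replicate 1 (r = 0.996 across probe sets).

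**Figure D5:**
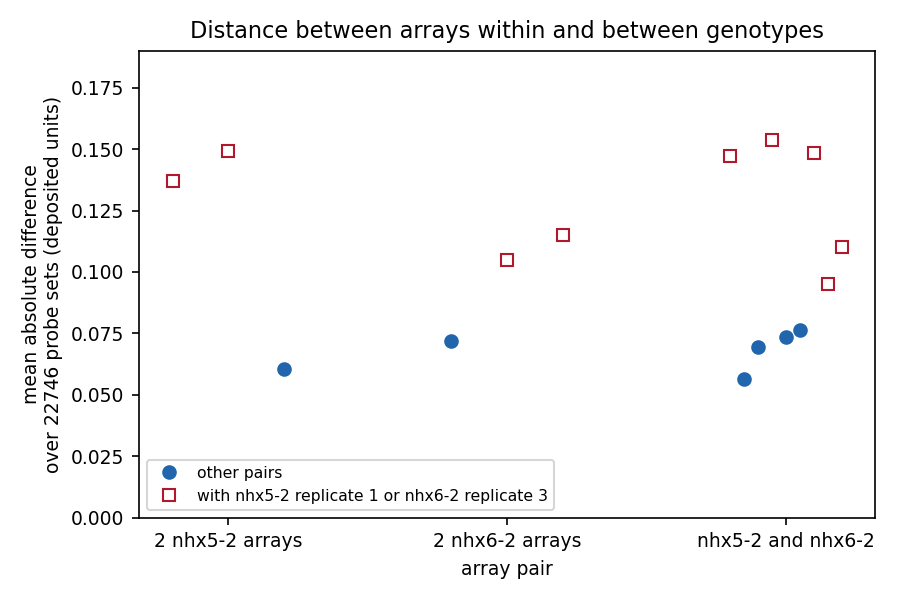
Each point is a pair of arrays, with the mean absolute difference over the 22746 probe sets on the y axis in deposited units. Pairs of different genotypes, at 0.057 to 0.154, cover the range of pairs of the same genotype, and the wide pairs all include nhx5-2 replicate 1 or nhx6-2 replicate 3.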

How the data were processed

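Biotin-labelled RNA made from 6 µg of total RNA per sample was hybridized to Affymetrix Arabidopsis genome arrays, per the labels' protocols. The authors deposited 1 score per probe set and array. The sources used here do not state its background correction, summarization, normalization or log base. The score was used as deposited, and compression on an array would shrink differences. Of 22810 probe sets, the 64 controls served for quality only. The annotation table named 1 gene for 13513 probe sets, several for 503 and none for 8730, and 13436 of the 13513 matched the reference gene table (TAIR10.1).

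Linear models (lmFit and eBayes of limma 3.58.1, R 4.3.3, default settings) were fitted to the 3 nhx5-2 and 3 nhx6-2 arrays, without a filter, and separately to the 6 double knockout arrays. The fit was run on simulated data with independent errors. These hold no deviations shared by many probe sets of an array, so the fit was not tested under such deviations. Spike-in concentrations of 1.5, 5, 25 and 100 pM are nominal values assumed here. The no-target level is the median of 27 control probe sets that name neither an Arabidopsis gene nor a hybridization spike-in.

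Named genes have exactly 1 listed gene and groups that do not overlap: the 15 largest differences each way that passed, filled up to 10 with the largest that did not. To these were added AT2G32500, the neighbours of NHX5 and NHX6, and up to 3 members per list with the smallest p. A listed gene with several probe sets was read from the brightest. Chloroplast genes were taken from the gene table. The members and lists were chosen with earlier results of these data known. Alternatives covered the arrays fitted, scaling, dim probe sets, weights, spread model, RNA quality, threshold and arrays left out.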

Additional observations from a re-analysis of the deposited data

How the results depend on the processing

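AT2G32500 passed under all 20 alternatives, with a difference of −2.12 to −2.01 units and an adjusted p of 6.81e-08 to 0.00225. The count of 2 changed probe sets became 1 with the replicate block, with the 3′ minus 5′ covariate, over probe sets with 1 gene only, and without both nhx5-2 replicate 1 and nhx6-2 replicate 3, an alternative chosen after seeing the data. It was 5 with array weights, 3 with all 15 arrays, and 1 to 2 when single arrays were left out. The probe set 263001_at passed under 11 of 19 alternatives and 263009_at under 8 of 19. The labels do not say whether a replicate number marks a shared batch. Deviations of same-numbered arrays correlated at −0.0994, −0.0473 and −0.15, and those of differently numbered arrays at −0.083 to 0.165. Such deviations cancel within each genotype, so these values cannot show whether same-numbered arrays belong together. The replicate block gave 1 call (263001_at: limma adjusted p = 0.0958). Intervals lay within 0.5 units of 0 for 10791 of the 11373 brighter probe sets and for 13047 of the 13513 with 1 gene, and within 1 unit for 11309 and 13479. Non-overlapping probe sets numbered 953 and 1014 in these subsets, which hold fewer probe sets, 3566 to 4752 without single arrays, and 8079 without both arrays named above, since fewer arrays separate more easily. Of the 24 genes and probe sets with the largest non-overlapping differences or smallest p, none changed sign under any alternative. Their groups do not overlap, so leaving out or weighting arrays could not have turned the sign. Of 185 list members and neighbours, which were not chosen for groups that do not overlap, 108 changed sign under at least 1 alternative, among them CHX16, CHX20 and LTI30.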
